A study of Homo sapiens with 4 samples.

Results

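The centrosome and kinesin genes were examined as targets of YTHDF1, a cytoplasmic protein that reads N6-methyladenosine (m6A) on mRNA, in SNU638, a gastric cancer cell line of human origin. The group was defined by gene name: protein-coding genes of the centrosomal protein (CEP), kinesin (KIF) and gamma-tubulin (TUBG) families, together with PCNT, CDK5RAP2, NEDD1, PLK4 and STIL. The choice was made with earlier results of these data known. Of the 6679 protein-coding genes in the deposited table of YTHDF1 windows, 39 belonged to this group, and they held 145 of the 24754 windows of protein-coding genes. They were 14 CEP, 16 KIF and 5 TUBG genes with PLK4, STIL, PCNT and CDK5RAP2, and NEDD1 was not listed.

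RNA immunoprecipitation sequencing (RIP-seq) recovers RNA that is pulled down with a protein and sequences it beside the RNA of the same lysate. The series had 4 libraries, 2 biological replicates of the YTHDF1 immunoprecipitate (IP-YTHDF1) and 2 of the input. All 4 came from cells that overexpressed YTHDF1, were kept without serum for 24 h and then received IFN-γ at 10 ng/ml for 24 h. Overexpression and IFN-γ were therefore shared by both groups, and neither untreated cells nor cells at the native YTHDF1 level were part of this comparison. The methods name a FLAG antibody for the pulldown in general, and the labels do not say which antibody these libraries had. The table gave 1 signal value, 1 p-value and 1 q-value per 50 bp window for IP-YTHDF1 against input. It held no value per library, so depth and the spread between replicates are unknown here, and no test between the groups was run. The signal value is the authors' score, of unstated scale, and is used to order windows within the table.

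The centrosome is built from a pair of centrioles, barrels of microtubules that are copied once per cell cycle under the kinase PLK4, and from the pericentriolar material around them, where gamma-tubulin rings nucleate microtubules. The older centriole carries appendages from which a cilium can grow, and a linker holds the pair together until mitosis. Kinesins are motors that use ATP on microtubules. Some carry vesicles, organelles and mRNA through the cytoplasm, and others build the spindle, move chromosomes or finish cell division.

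The first comparison asked how much of this gene group was listed at all. Of 93 protein-coding genes in RefSeq that the naming rule covers, 39 had at least 1 listed window (41.9%, Wilson 95% interval 32.4% to 52.1%), against 31.8% of all protein-coding genes. With the q-value limit set at 0.001, 21 of the 93 were left (22.6%, interval 15.3% to 32.1%), against 21.2% of all protein-coding genes, so the stricter limit brought the group close to the background. The q-values were adjusted within each gene. A limit on them is therefore not the same p-value cut in every gene, and depends on how many of its windows were tested. The table gives no expression level, so for the other 54 genes a lack of binding and a lack of RNA cannot be told apart, nor could the cell line be checked against markers. The intervals cover counting error only. Since the group was chosen with earlier results of these data known, its share is a description and not a sign of enrichment. By family, 14 of 37 CEP genes (37.8%) and 16 of 44 KIF genes (36.4%) were listed. So were 5 of 7 TUBG genes and 4 of the 5 genes named singly. The 31.8% is 6370 of 20056 RefSeq genes. Listed genes without a RefSeq match are not in it, whereas all 39 members matched.

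The groups by role differed in how many members were listed. In the pericentriolar and gamma-tubulin group, 7 of 10 genes had a window, and only NEDD1, TUBGCP3 and TUBGCP5 had none. Of the linker, appendage and cilium proteins, 10 of 19 were listed. Among the centriole duplication genes 5 of 11 were listed, and CEP152 and CEP63, which recruit PLK4 to the centriole, were not among them. For the mitotic kinesins the count was 6 of 15, with no window for KIF18A, KIF20B, KIF23, KIF2C or KIF4A. Transport and other kinesins were listed in 10 of 29 cases. By name this group also takes in KIF1BP, listed, and KIFAP3, not listed, which bind kinesins and are not motors. Of 8 other CEP genes, CEP57 alone had a window, and CEP55, which acts at the midbody, had none. CEP295NL was placed in no role group and was not listed. At the 0.001 limit the counts were 3 of 10 pericentriolar and gamma-tubulin genes, 7 of 19 linker, appendage and cilium genes, 2 of 11 duplication genes, 3 of 15 mitotic kinesins, 6 of 29 transport and other kinesins and 0 of the 8 other CEP genes, next to the 21.2% of all protein-coding genes. These counts are small, and the differences between role groups were not tested.

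**Figure D1:**
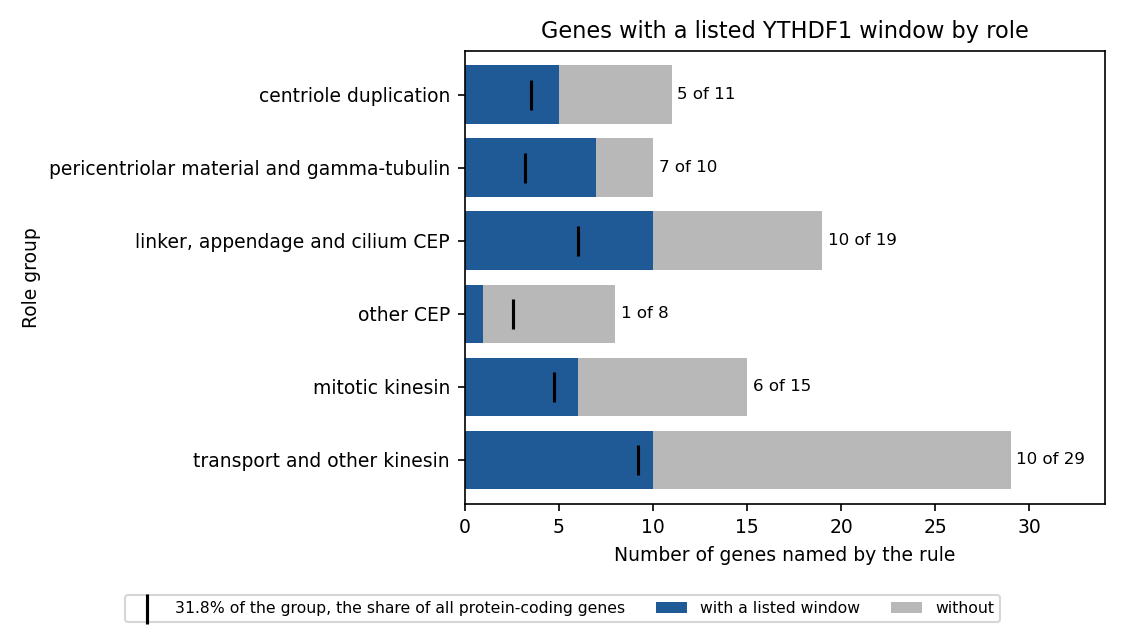
Horizontal bars give the number of genes named by the rule in each of 6 role groups, blue for genes with a listed YTHDF1 window and grey for genes without, and the black mark stands at 31.8% of the group, the share of all protein-coding genes listed. By share of the group, the pericentriolar and gamma-tubulin genes (7 of 10) lie farthest above 31.8%, and the other CEP genes (1 of 8) lie below it.

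In strength the 39 genes lay close to other coding genes. The signal value of their 145 windows had a median of 1.87 and ran from 0.82 in KIFC1 to 4.07 in KIF13A, next to a median of 1.83 over 24609 windows of other coding genes. By the strongest window of each gene, the median was 2.17 in the group and 2.23 in the other 6640 coding genes. The number of listed windows had a median of 3 in both. A single window was listed for 10 genes, 2 to 4 windows for 17, 5 to 8 for 10, and 9 windows, the most the table lists for any gene, for CEP89 and CEP170B. The number of windows tested per gene, recovered from how each q-value relates to its p-value, ran from 9 in KIF21A to 122 in CEP170B. Its median was 42 in the group and 36 in other coding genes. In genes with fewer than 9 listed windows, the median share of tested windows that were listed was 6.25% in the group and 8.33% in other coding genes.

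**Figure D2:**
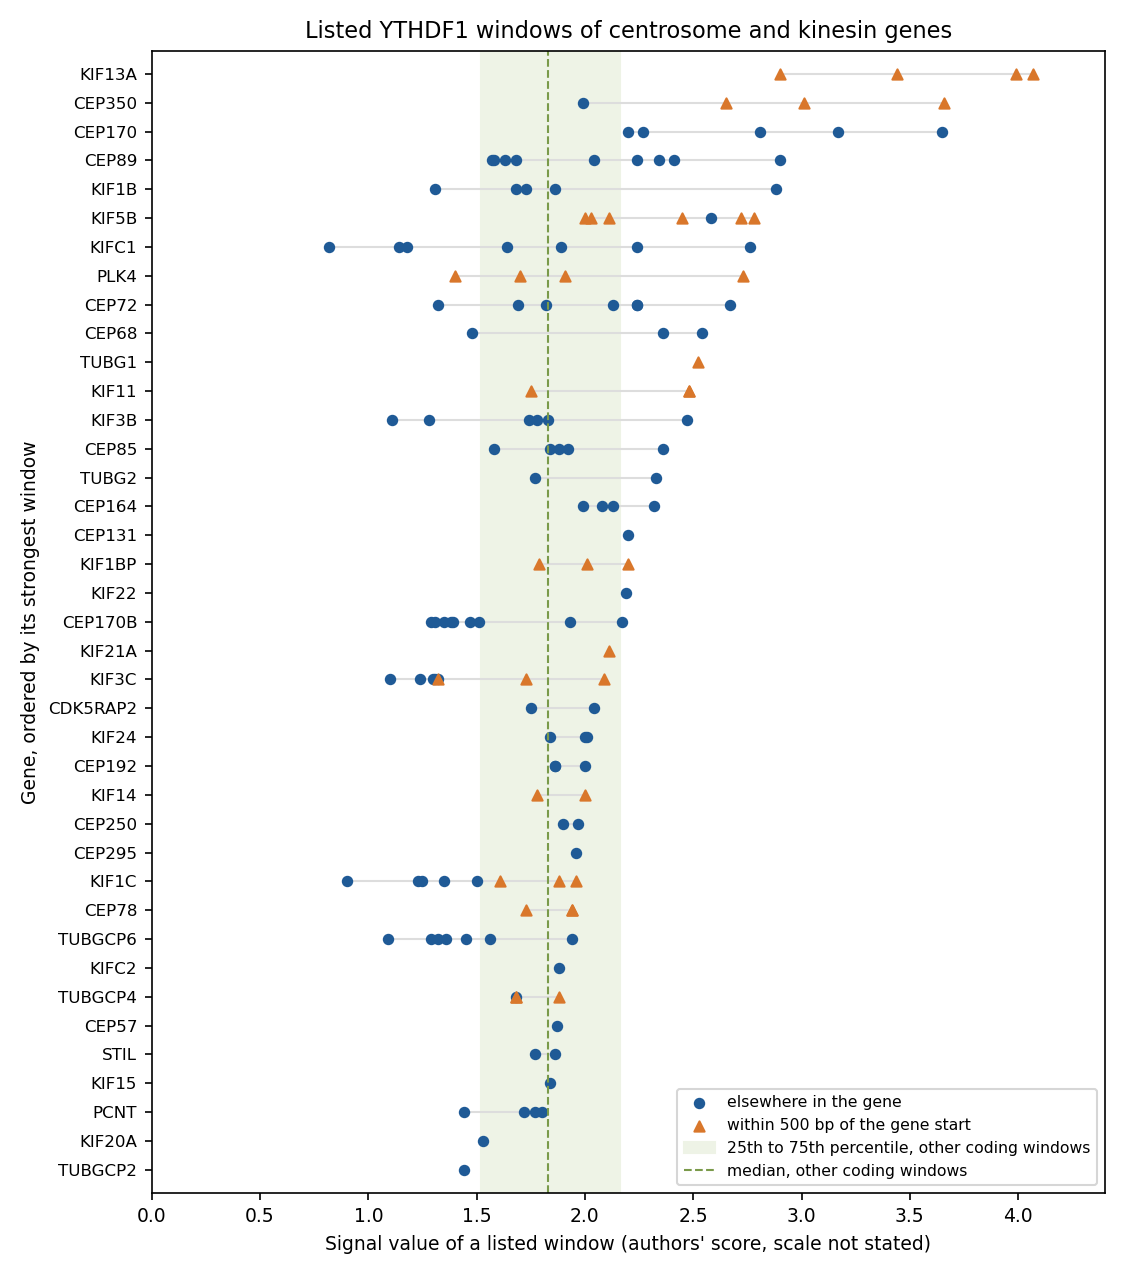
Each row is 1 of the 39 genes, ordered by its strongest window, and each point is a listed 50 bp window at its signal value on the horizontal axis, with orange triangles for windows within 500 bp of the gene start and blue circles for the rest. The dashed line is the median of other coding windows (1.83) and the shaded band their 25th to 75th percentile (1.52 to 2.16). KIF13A, CEP350 and CEP170 are the only genes plotted with a window above 3.

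KIF13A, CEP350 and CEP170 stood above the rest, with 7 windows of at least 3 among them, and each had its strongest windows side by side near the 5′ end of the gene. KIF13A, a kinesin-3 motor that carries endosomal cargo, held the strongest window of the group. Its 4 listed windows were adjacent on the minus strand of chromosome 6, from 17987434 to 17987633 of GRCh38. In transcript order from the gene start their signal values were 3.44, 3.99, 4.07 and 2.90. The first 3 had a q-value listed as 0, and the one farthest in had 3.54e-09. Of the strongest windows of all coding genes, 99.6% lay below that of KIF13A. The gene spans 228510 bp, and no window farther in was listed.

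CEP350, a large centrosomal protein that anchors microtubules, had 3 adjacent windows on the plus strand of chromosome 1, from 179954974 to 179955123, with signal values of 2.65, 3.66 and 3.01. The remaining window lay 41789 bp from the gene start at 1.99, lower than these 3. CEP170, a marker of the subdistal appendages, had 4 adjacent windows on the minus strand of chromosome 1, from 243255079 to 243255278, with 3.17, 2.81, 2.27 and 3.65 in transcript order. The centre of the first lay 531.5 bp inside the RefSeq gene interval, which takes in every transcript, but its near edge was only 3 bp from the start that the RefSeq promoter table gives for CEP170, at 243255281. Another window, 30532 bp from the gene start, had 2.20. CEP170 has a near-identical pseudogene, CEP170P1, with 2 listed windows of its own at 2.28 and 2.12, so reads may be split between the copies.

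KIF13A and CEP170 are the strongest members whose windows the RefSeq promoter table (GRCh38.p14) reaches, and KIF1BP and KIF1C also have a window that begins just past their start site, so the sequence under these windows is shown. Each line gives the first 30 bases of the window in transcript direction. They are in lower case, since none holds the m6A consensus DRACH on the gene's strand. DRACH stands for A, G or T, then A or G, then A, then C, then A, C or T, and was searched on both strands with overlaps counted.
KIF13A, chr6:17987604-17987633, minus strand, signal value 3.44: cgcgctcccccgggatggcccgcgcgcctc
CEP170, chr1:243255249-243255278, minus strand, signal value 3.17: tcccgaggcgcctgcgcactaggcagtcgg
KIF1BP, chr10:68988822-68988851, plus strand, signal value 2.20: tagaggccgctatggcgaacgttccgtggg
KIF1C, chr17:4997951-4997980, plus strand, signal value 1.96: gctcgcgctgcccgggcgggcgccggccgc
No DRACH match lay on the gene's strand in the bases of these windows that the table reaches, which were 48 in KIF13A, 47 in CEP170, 31 in KIF1BP and 49 in KIF1C. On the opposite strand CEP170 held 1 match and the other 3 genes none. This says only which letters are in these bases.

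The position of windows along the gene was then compared with other coding genes. A window was counted at the start when its centre lay within 500 bp of the 5′ end of the RefSeq gene interval, introns included. In the group, 39 of 145 windows lay at the start (26.9%, Wilson interval 20.3% to 34.6%), against 24.6% of 23143 windows of other coding genes. By gene, 13 of 39 members had a start window (33.3%, interval 20.6% to 49.02%), against 43.8% of all coding genes that could be placed. The background share lay inside each interval. The interval for windows treats them as independent, although many touch within a gene, so it is too narrow. No difference was tested. No member window lay within 500 bp of the 3′ end of its gene, where 2.03% of the windows of other coding genes lay. Within 1000 bp of that end lay 2 member windows (1.38%), against 4.34%. These counts are small, and the difference was not tested.

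Start windows were the stronger ones, in the group as in the table. Their median signal value was 2.01, against 1.825 for the 106 member windows elsewhere, and in other coding genes the values were 1.99 and 1.79. Without KIF13A, CEP350 and CEP170 the group's medians were 1.95 for 32 start windows and 1.77 elsewhere. Of the 7 member windows of at least 3, 5 lay at the start, and the other 2 were those of CEP170. In other coding genes, 45.7% of 621 windows of at least 3 lay at the start. Windows are neighbours within genes and not independent, so these medians are a description.

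**Figure D3:**
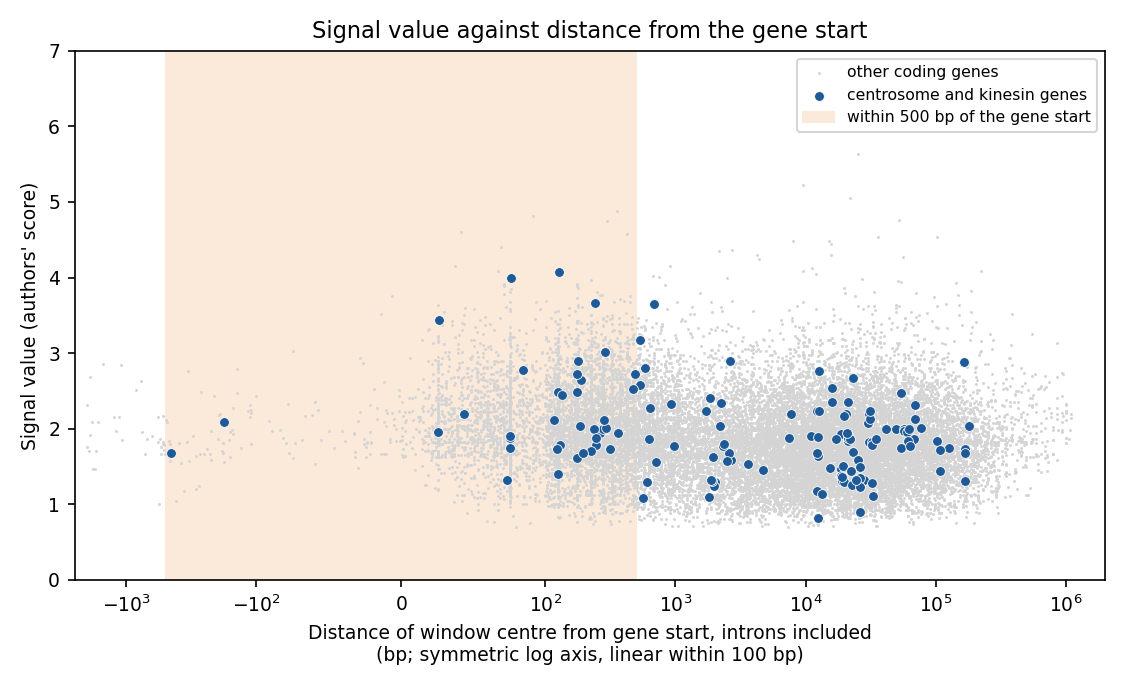
Each point is a listed window, with the distance of its centre from the gene start on a symmetric log axis (bp, introns included) and its signal value on the vertical axis, blue for the 145 windows of centrosome and kinesin genes and grey for other coding genes, and the shaded band marks 500 bp on either side of the start. The strongest blue points lie inside the band or just right of it. Farther in, all blue points lie below 3, where some grey points lie above it.

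In 8 genes every listed window was a start window: KIF13A, PLK4, TUBG1, KIF11, KIF1BP, KIF21A, KIF14 and CEP78. In 5 others, CEP350, KIF5B, KIF3C, KIF1C and TUBGCP4, start windows stood beside windows farther in. The other 26 had their listed windows elsewhere only, by the RefSeq gene interval. CEP170 is among them, although the promoter table puts its start site beside its first window. So are CEP89 and CEP170B, and the places and signal values of their windows that passed but are not listed are unknown. A window at the start, or one stronger than those listed, may be missing from these 2 genes.

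**Figure D4:**
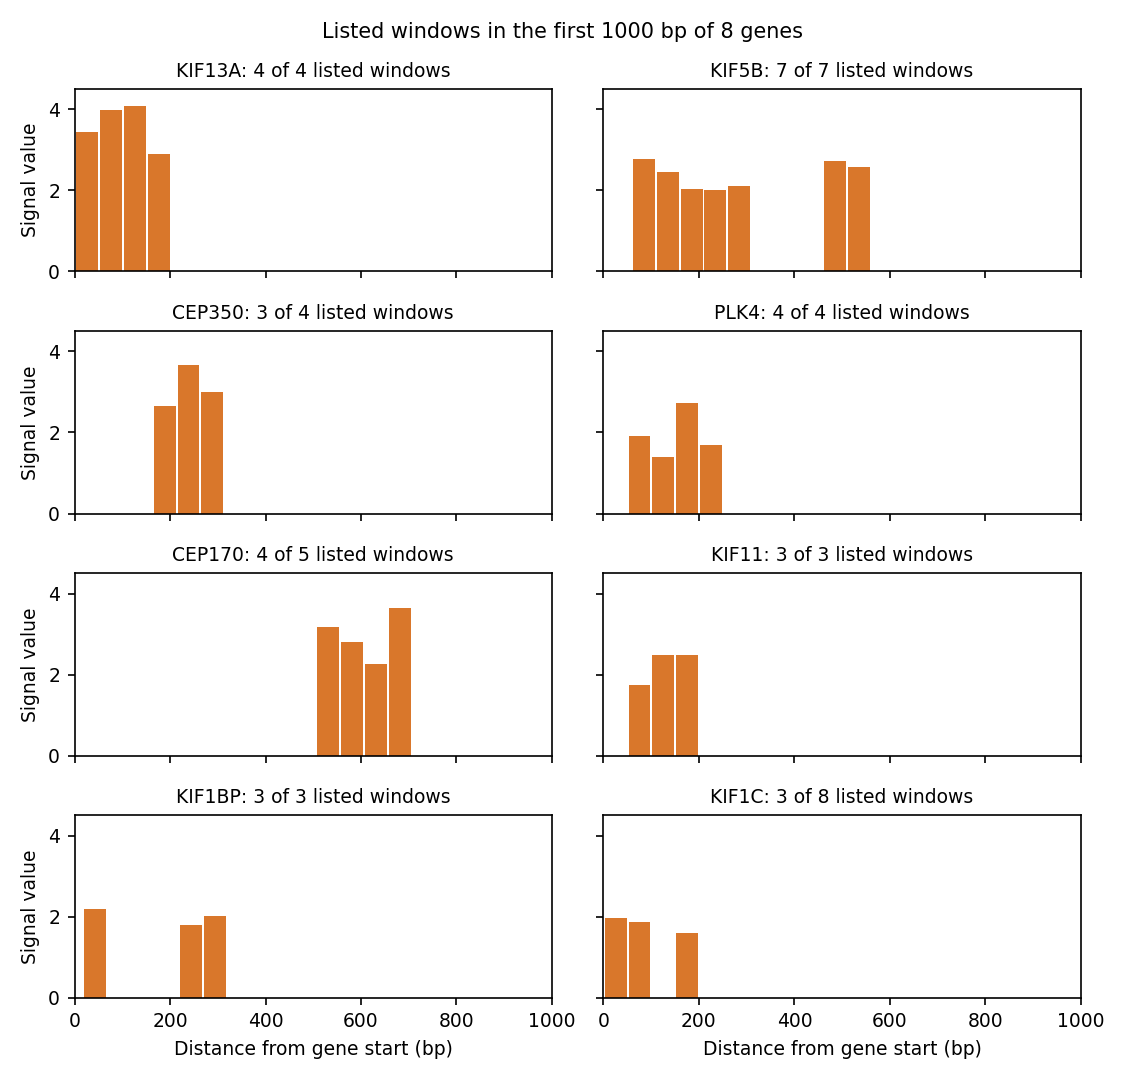
Bars show the signal value of each listed 50 bp window (vertical axis) at its distance from the gene start in bp (horizontal axis) over the first 1000 bp of 8 genes, and the panel titles give how many of the gene's listed windows fall in this stretch. KIF13A has an unbroken block from the start, KIF5B a pair of blocks, and the block of CEP170 begins about 500 bp in.

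PLK4 is the kinase that starts centriole duplication, and it was the strongest of the duplication genes. Its 4 windows were adjacent on the plus strand of chromosome 4, from 127880944 to 127881143, with signal values of 1.91, 1.40, 2.73 and 1.70. The one at 2.73 stood out with a q-value of 1.56e-07, whereas the others had q-values from 0.0081 to 0.0363. All 4 lay upstream of the start site that the promoter table gives for PLK4, at 127881232, and inside the outer gene interval of RefSeq. Windows 3 and 4 each held 1 DRACH match on the gene's strand and none on the opposite strand, and window 2 held 1 on the opposite strand only. With a KIF3C window, which also held 1 on the opposite strand only, these were the 4 member windows that the table covers whole, so each strand had a match in 2 of 4. The matches are printed in capitals within 30 bases of each window, because these were the only matches on the gene's strand in the member windows that the table reaches. GGACT in window 3 also fits the narrower form of the motif, GGAC followed by A, C or T.
PLK4 window 3, chr4:127881064-127881093, plus strand, signal value 2.73: cttggagcgctgcctcgaagGGACTgcgtg
PLK4 window 4, chr4:127881099-127881128, plus strand, signal value 1.70: agctaatccggaGAACCcaggccagagcct
Of the 410 windows of coding genes that lie whole inside a promoter sequence of their own gene, 38.8% held a DRACH match on the gene's strand (Wilson interval 34.2% to 43.6%) and 39.3% on the opposite strand (34.7% to 44.1%). The narrower form was found in 15.1% on the gene's strand (11.98% to 18.9%) and in 11.7% on the opposite strand (8.94% to 15.2%). These intervals overlap between the strands for both motifs. These 410 windows lie at gene starts and do not stand for the windows farther in.

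The other duplication genes were weaker. CEP85, which binds STIL, had 5 windows, of which 4 were adjacent on chromosome 1 with 2.36, 1.84, 1.92 and 1.88, and 1 farther in had 1.58. STIL, the scaffold that PLK4 phosphorylates in the cartwheel, had 2 windows at 1.77 and 1.86, both with a q-value of 0.0256. CEP192, which brings PLK4 and pericentriolar material to the centriole, had 3 separate windows at 1.86, 2.00 and 1.86. CEP295, needed to turn a new centriole into a centrosome, had 1 window at 1.96. Of these 5 genes, PLK4 and CEP85 had a window below the 0.001 limit.

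The pericentriolar scaffolds PCNT and CDK5RAP2 had no window under the 0.001 limit. PCNT (pericentrin) had 4 of 99 tested windows listed, at 1.77 and 1.80 in adjacent windows 2310.5 and 2360.5 bp from the gene start, and at 1.44 and 1.72 in windows 107760 and 107910 bp from it. All 4 q-values lay between 0.0152 and 0.0259. CDK5RAP2, which activates the gamma-tubulin ring, had 2 windows at 2.04 and 1.75, 11920 and 64770 bp from the 3′ end of the gene. The strongest windows of PCNT and CDK5RAP2 exceeded those of 12.4% and 34.2% of coding genes.

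By the strongest window of each gene, both gamma-tubulins lay above their partners in this group. TUBG1 had 1 of 17 tested windows listed, at 475.5 bp from the start on chromosome 17, where it reached 2.52 (q-value 9.69e-06). TUBG2 had a pair of adjacent windows at 2.33 and 1.77. These paralogues are close copies that lie near each other, so the share of reads between them is uncertain. Of the ring proteins, TUBGCP6 had 7 windows in 6 places along the gene, from 1.09 to 1.94. TUBGCP4 had 4 windows, 3 of them at 1.68 and 1 at 1.88, and TUBGCP2 had a single window at 1.44, the lowest strongest window of the group.

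Among the linker, appendage and cilium proteins, CEP89 and CEP72 followed CEP350 and CEP170. CEP89, a distal appendage protein, had 9 windows within 1000 bp on the minus strand of chromosome 19, from 1.57 to 2.90. Its q-values fit about 67 tested windows with the last listed window in position 13 of the order of p-values, so at least 4 windows that passed are not listed. CEP170B, the paralogue of CEP170, had 9 windows within 1250 bp of chromosome 14, from 1.29 to 2.17. Its last listed window was in position 10 of about 122, so at least 1 is not listed. CEP72 had 7 windows in 5 places over 19150 bp, with 2.24, 1.69, 2.67, 1.32, 1.82, 2.13 and 2.24 in transcript order. CEP68 and CEP250, which form the linker between centrioles, differed: CEP68 had 3 windows at 1.48, 2.36 and 2.54, the latter pair adjacent and each with a q-value of 5.69e-09, and CEP250 had 2 of 118 tested windows, at 1.90 and 1.97. CEP164, the distal appendage protein that starts cilium growth, had 4 windows, each standing alone, between 1.99 and 2.32. CEP131 had 1 window at 2.20 and CEP78 had 3 adjacent ones up to 1.94. CEP57, from the remaining CEP genes, had 1 window at 1.87.

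For the motors of mitosis, KIFC1 and KIF11 led. KIFC1, the minus-end directed motor that gathers extra centrosomes into the spindle poles, had 7 of 34 tested windows listed on chromosome 6. In an unbroken block of 5 the values were 0.82, 1.89, 1.64, 2.24 and 2.76 in transcript order, so the strongest closed the block. The other 2 had 1.18 and 1.14. KIF11 (Eg5), which pushes the spindle poles apart, had 3 of 11 tested windows listed, adjacent at 76 to 176 bp from the start, with 1.75, 2.48 and 2.48. KIF22, a chromosome-bound motor, had 1 window at 2.19 with a q-value of 9.08e-07. KIF14, which acts in cytokinesis, had 2 windows near the start at 2.00 and 1.78. KIF15 and KIF20A had 1 window each, at 1.84 and 1.53. The KIF15 window overlapped a listed window of TMEM42 on the same strand, with a signal value of 1.40, so it cannot be assigned to KIF15 alone.

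Transport motors showed several layouts. KIF5B, the kinesin-1 heavy chain, had the densest listing of the group, with 7 of 20 tested windows (35%). All 7 lay between 85 and 535 bp from the start on chromosome 10, with 2.78, 2.45, 2.03, 2.00, 2.11, 2.72 and 2.58 in transcript order, and none had a q-value above 0.000191. KIF1B, a kinesin-3 motor of mitochondria and vesicles, had the opposite layout. Its strongest window, at 2.88 with a q-value of 3.33e-10, lay 4373 bp from the 3′ end of the gene, and 3 more lay within 3 kb of that end at 1.73, 1.31 and 1.68. The remaining one, at 1.86, lay 21811 bp from the start. KIF1C, its relative, had windows at the start and farther in, the last of them 4075.5 bp from the 3′ end. Its 3 start windows had 1.96, 1.88 and 1.61, and the 5 windows farther in had lower values, the lowest of them 0.90. By q-value the order differed, because the smallest, 1.86e-05, belonged to one of those farther in.

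KIF3B and KIF3C are subunits of kinesin-2, the motor of intraflagellar transport and other cargo. In KIF3B the strongest of 6 windows, at 2.47 with a q-value of 3.03e-14, lay 2735 bp from the 3′ end, and 4 windows in the middle of the gene ran from 1.11 to 1.83. KIF3C had 8 windows from 1.10 to 2.09, all near the 5′ end and none with a q-value under 0.0105. The strongest of them lay 177 bp upstream of the RefSeq start. The partner subunit KIF3A and the adaptor KIFAP3 had no listed window. KIF1BP, which binds kinesins and blocks their motor domain, had 3 windows within 300 bp, at 2.20, 1.79 and 2.01. KIF24, a centriolar microtubule depolymerase, had 3 lone windows at 2.01, 2.00 and 1.84. KIF21A and KIFC2 had 1 window each, at 2.11 and 1.88.

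A list of 55 related centrosome and spindle genes outside the naming rule was read alongside. It was made with earlier results of these data known, so its shares are a description and not a sign of enrichment. Of the 55 genes, 24 had a listed window (43.6%), against 31.8% of all protein-coding genes, and 20 had one under the 0.001 limit, where the share of all protein-coding genes was 21.2%. The median of their strongest windows was 2.56. The largest values were 3.76 in CROCC (rootletin, a linker and rootlet fibre), 3.53 in NIN (ninein, which anchors microtubules at appendages) and 3.39 in TACC1. All 6 windows of HAUS6, a subunit of the augmin complex, lay within 500 bp of its start, and the strongest had 3.21. The other HAUS genes of the list, HAUS1 to HAUS5, HAUS7 and HAUS8, had no listed window. The mitotic kinases PLK1 and AURKA reached 2.27 and 2.65, and AURKB and NEK2 had no listed window. No window was listed for SASS6, CCP110 or CPAP, which act with PLK4 and STIL in building the centriole.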

How the data were processed

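The deposited file is 1 table of windows for IP-YTHDF1 against input in 4 libraries (2 per group). The submitters' processing notes name STAR 2.7.3a and GRCh38, and the peak caller is not given in the sources used here. The score (signal value and rank), the p-value and the q-value of each 50 bp window are the authors' deposited values, none per library, and 0 per-library columns were left unused. Depth is therefore unknown, and no group test could be run. No listed q-value exceeds 0.05. Of 26820 lines, 1 exact repeat was dropped.

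Members were taken by name. The members, role groups and lists were chosen with earlier results of these data known, and the distance limits and the setting aside of the 3 strongest genes after the values were seen. Values are given in full for PLK4, STIL, PCNT, CDK5RAP2, NEDD1 and TUBG1, the 10 strongest members and the strongest of each role, and by range for members with 9 windows. All 39 members and 6375 of 6679 coding genes matched a RefSeq symbol or synonym (GRCh38.p14), and 23288 windows were placed on a gene interval, which replaces a planned split by transcript region, since exon annotation was not used here. KIF1BP is KIFBP in RefSeq. Of the genes the name patterns cover, 2 are not reported here and stay among the other coding genes. The number of tested windows was estimated from the q-values and p-values of each gene, a step tested on simulated data. Alternatives were a stricter q-value, a signal minimum, joined windows, and leaving out shared windows or genes with 9 windows. Shares have Wilson 95% intervals (SciPy 1.17.1). Python 3.11.15 was used with NumPy 2.4.6 and pandas 2.3.3, and matplotlib 3.10.9 drew the plots.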

Additional observations from a re-analysis of the deposited data

How the results depend on the processing

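No paired analysis was possible because replicates are not told apart in the windows' values, and leaving out a replicate was not possible for the same reason. At a q-value of at most 0.001, 21 genes and 59 windows were left of 39 and 145, and the median strongest signal value was 2.52, next to 2.42 in other coding genes. Joining touching windows gave 90 regions. The median strongest value was 2.11 without genes of 9 windows (others 2.19), and the median over each gene's middle window was 1.895 (others 1.91). A signal value of at least 2 left 26 genes. The share of all protein-coding genes at that limit was not computed, so this count does not place the group against the background. Leaving out the window shared with TMEM42 left 38 genes. The share of start windows ran from 24.2% without the 3 strongest genes (others 24.6%) to 34.5% at 1000 bp (others 31.4%). Other transcripts and the planned DRACH alternatives for the members (GGAC, longer windows, a stricter q-value, strongest windows alone) were not run, since only 4 member windows lie whole in the sequences used here.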
